A study of Mus musculus with 4 samples.

Results

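Proteins bound for secretion or for membranes enter the endoplasmic reticulum (ER), where they are cut, glycosylated and folded, and 37 genes of that machinery were followed here in the mouse small intestine. Of these, 19 belong to the unfolded protein response (UPR) and the folding and degradation genes it controls. The other 18, called secretory genes below, are the channel and enzymes of translocation into the ER and receptors that return escaped residents. The genes were listed by name, with earlier results of these data known. For 36 of the 37, the array carries at least 1 probe set, a group of probes summarized as 1 signal, that is listed for that gene alone. These 36 genes rest on 79 probe sets and all passed the limit on dim signals, and they are set beside all 11090 genes that did so. The remaining gene, Sec61g, has only a probe set that is listed for 3 genes.

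RNA of the entire small intestine, with the mesentery removed, was pooled within each of 4 groups of C57BL/6 mice: CF + lubiprostone, CF control, WT + lubiprostone and WT control. CF mice carry the germline Cftr null allele cftr-tm1Unc and WT mice are their wild type littermates. Treated mice were given lubiprostone, a fatty acid derivative that stimulates chloride secretion by epithelia, at 10 µg/kg by gavage each day for 2 weeks, and all mice of all groups lived on the liquid diet Peptamen. Ages, and whether control mice were gavaged with vehicle, are not given in the sources used here. The design text counts 8, 10, 7 and 10 mice in the pools, in the order above, and the methods give a smaller number for WT control. Each pool was read on 1 array, so no difference has a replicate check, no test could be made, and each ratio describes these pools only. In pooled tissue, fewer cells of a type and less RNA per cell cannot be told apart.

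Values are signals on a linear scale with arbitrary units, already scaled by array, and array medians lay between 109 and 124. A gene's signal is the geometric mean of its probe sets. The one error available is the spread between probe sets of a gene within these arrays, with a median SD of 0.18 to 0.23 on the log2 scale over 4876 genes. Cftr had signals of 715 in CF + lubiprostone, 620.2 in CF control, 2226 in WT + lubiprostone and 2505 in WT control from 1 probe set, and where that probe set lies relative to the disrupted exon was not determined.

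In the ER, the Sec61 channel takes in the new chain, the signal peptidase removes its leader, the oligosaccharyltransferase adds glycans, and chaperones and disulfide isomerases fold it. When unfolded protein collects, the sensors IRE1 (Ern1 and Ern2), ATF6 and PERK raise the transcription of folding, degradation and translocation genes, in part through the transcription factor XBP1. In the gut this machinery is prominent in goblet cells, which fold large mucins, and in Paneth and plasma cells.

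The differences were small, and the ratios of many members lay on the same side of 1. No member reached 3-fold, the threshold of the study, in any comparison. Among all genes the shares that did were 0.64% higher and 1.19% lower for CF control over WT control, 0.117% and 0.225% for WT + lubiprostone over WT control, 0.352% and 0.316% for CF + lubiprostone over CF control, and 0.676% and 0.721% for CF + lubiprostone over WT + lubiprostone. A lower threshold of 1.5-fold is used below. For 28 of the 36 members all 4 pools lay within 1.5-fold of each other, against 66.6% of all genes. Of the members, 33 are among the 5714 genes whose mean signal is at or above the 75th percentile of the arrays. Of those 5714, 52 were 1.5-fold higher and 57 lower for WT + lubiprostone over WT control, against 309 and 351 of all 11090. The gap was narrower in the other comparisons. The counts were 324 and 422 against 704 and 1065 for CF control over WT control. For CF + lubiprostone they were 231 and 193 against 803 and 516 over CF control, and 285 and 335 against 699 and 779 over WT + lubiprostone. The share of the 5714 within 1.5-fold over the 4 pools was not counted.

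The order of the pools was uneven. CF control had the highest signal for 23 of 36 members, against 27.6% of all genes and 32.7% of the 5714 bright genes, whose mean signal is at or above the 75th percentile of the arrays and which include 33 of the members. CF + lubiprostone was highest for 8 members (26.5% of all genes), WT control for 5 (24.7%) and WT + lubiprostone for 0 (21.2%). The lowest signal was in CF + lubiprostone for 6 members (25.6% of all genes), in CF control for 3 (29.4%), in WT + lubiprostone for 14 (21%) and in WT control for 13 (23.9%).

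**Figure D1:**
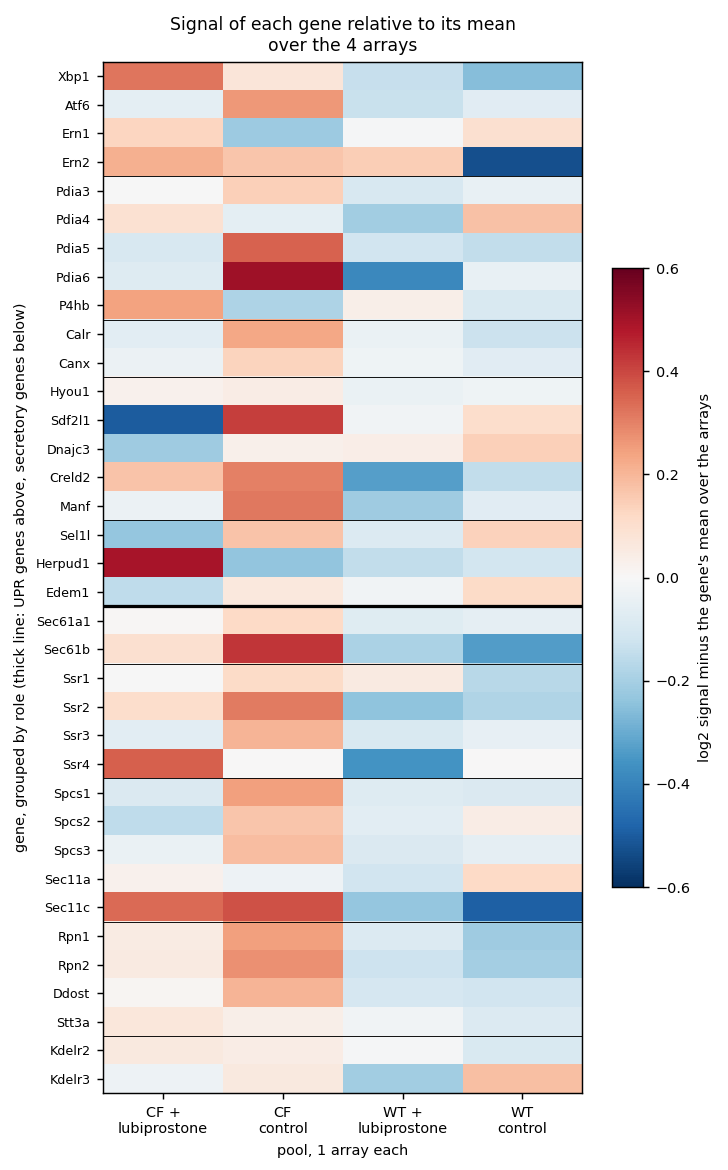
Signals of the 36 measured genes (rows, by role) in the 4 pools (columns, 1 array each), as log2 signal minus the gene's mean over the 4 arrays. CF control is the highest pool for 23 of the 36 genes, while Xbp1, Herpud1 and Ssr4 are highest in CF + lubiprostone.

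For CF control over WT control, 13 of 19 UPR genes and 14 of 17 secretory genes had a ratio above 1, against 48.3% of all genes. The median log2 ratio was 0.20 for UPR genes and 0.25 for secretory genes, beside -0.01 for all genes and 0.03 for bright genes. At 1.5-fold, 3 members were higher (Sec11c, Sec61b and Ern2) and 0 lower, where 6.35% of all genes were higher and 9.6% lower. The upward count was near the background, and the downward count of 0 was below it. The side of 1 on which small ratios fall depends on the scaling. With each array scaled to the same median, all genes had a median of 0.16, 17 of 19 UPR and 17 of 17 secretory genes had a ratio above 1 against 67.1% of all genes, 9 members were past 1.5-fold upward against 12.4% of all genes, and CF control was the highest pool for 30 members against 46.0% of all genes. Relative to the median of all genes, the UPR median was 0.22 and the secretory median 0.27, a difference that such scaling cannot move. The secretory value was 0.17 after quantile normalization and 0.38 with the brightest probe set of each gene, where the UPR values were 0.22 and 0.30.

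**Figure D2:**
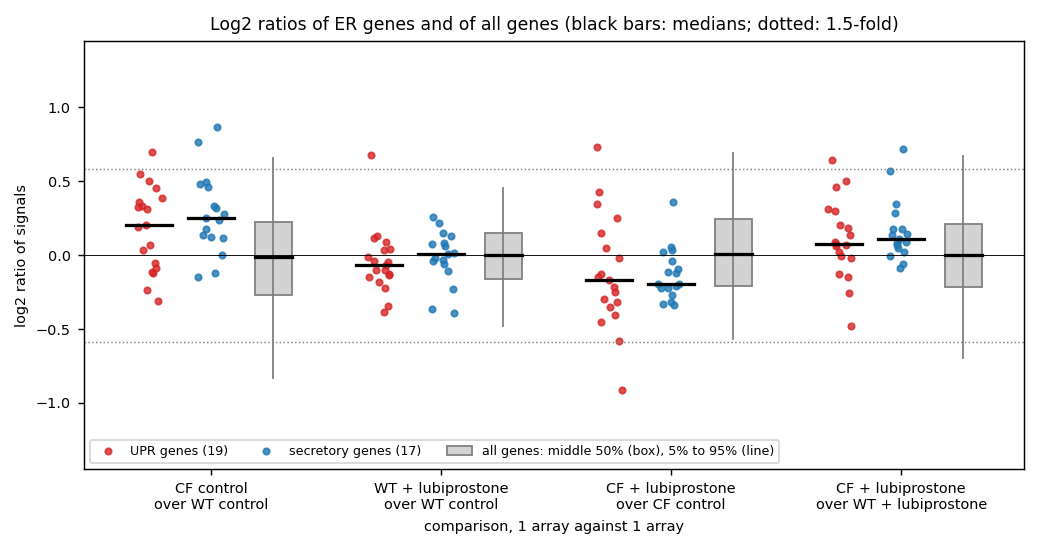
Log2 ratios of signals (vertical axis) of 19 UPR genes (red) and 17 secretory genes (blue) in 4 comparisons of 1 array against 1 array, beside all genes (grey box for the middle 50%, line for the 5th to 95th percentile). Black bars are medians, at 0.20 and 0.25 for CF control over WT control and at -0.17 and -0.19 for CF + lubiprostone over CF control, and dotted lines mark 1.5-fold.

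Among the UPR sensors and transcription factors, Xbp1 was graded over the pools. Xbp1, whose mRNA is spliced by IRE1 to give the active factor, had signals of 6412 in CF + lubiprostone, 5388 in CF control, 4665 in WT + lubiprostone and 4298 in WT control. Both CF pools were above both WT pools, and in each genotype the treated pool was above its control. The share of all genes with both CF pools above both WT pools was not counted. The Xbp1 ratio was 1.25 for CF control over WT control, 1.37 for CF + lubiprostone over WT + lubiprostone and 1.19 for CF + lubiprostone over CF control. The SD over its 4 probe sets was 0.185, 0.195 and 0.03 on the log2 scale, in that order. All 4 probe sets had ratios above 1 in all 4 comparisons. These signals do not separate spliced from unspliced mRNA.

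Of the sensors, Atf6 and Ern1 had other orders, while Ern2 had the order of Xbp1 with 3 of its pools close together. Atf6, a sensor cut in the Golgi to release a transcription factor, had signals of 390.1 in CF + lubiprostone, 487 in CF control, 370.3 in WT + lubiprostone and 387 in WT control, and its 3 probe sets disagreed, with an SD of 0.39 for CF control over WT control. Ern1, the IRE1 form of most tissues, had 528, 416, 480.4 and 515 in the same order of pools, and its 2 probe sets disagreed, with an SD of 0.49 for CF control over WT control. The brighter gave 1.03 and the dimmer 0.633 there. Ern2, the IRE1 form of mucous epithelia, had 181, 175, 173 and 108 from 1 probe set, so that WT control lay apart from the other 3 pools. It was the sole member with a pool below its array's median. The ratio to WT control was 1.62 for CF control and 1.60 for WT + lubiprostone, and 1.42 and 1.40 with the WT control signal set to that median.

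Many folding genes carry an ER stress response element (ERSE) near the start site, bound by ATF6 or XBP1 together with NF-Y. A set of 3 elements was searched on both strands in the 250 bases upstream of each start site in a table of RefSeq promoters (build GRCm38.p6), in which 28 of the 37 members were matched, and the stretches that hold one are shown because they are the response elements of this pathway. ERSE, spelled CCAAT, any 9 bases and CCACG, was present for 5 of the 28 matched members and in 0.113% of the 32851 start sites of all genes. Members are counted as genes and the background as single start sites, so the units differ. ERSE-II, spelled ATTGG, any 1 base and CCACG, shares its last letters with ERSE and was present for 1 member and in 0.0304% of all. The core of the UPR element, TGACGTGG, contains CCACG when read on the other strand and was present for 1 member and in 0.563% of all. Stretches run 5′ to 3′ along the strand of the gene, capitals mark the fixed letters, and reversed means that the element lies on the other strand.
Pdia6, chr12:17266471-17266529, plus strand, ERSE: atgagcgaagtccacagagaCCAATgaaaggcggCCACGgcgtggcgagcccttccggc
Creld2, chr15:88819500-88819558, plus strand, ERSE reversed: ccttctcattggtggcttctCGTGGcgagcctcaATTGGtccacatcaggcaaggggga
Calr, chr8:84847055-84847113, minus strand, ERSE reversed: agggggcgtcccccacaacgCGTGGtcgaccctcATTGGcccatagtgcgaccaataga
Canx, chr11:50325780-50325838, minus strand, ERSE: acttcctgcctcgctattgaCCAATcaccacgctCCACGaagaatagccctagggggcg
Dnajc3, chr14:118937807-118937865, plus strand, ERSE: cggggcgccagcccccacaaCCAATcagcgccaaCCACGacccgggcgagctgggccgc
Herpud1, chr8:94386357-94386407, plus strand, ERSE-II: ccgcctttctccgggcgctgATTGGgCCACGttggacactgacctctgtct
Kdelr3, chr15:79516358-79516405, plus strand, UPR element core reversed: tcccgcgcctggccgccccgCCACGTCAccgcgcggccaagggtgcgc
For the 5 genes with an ERSE, the ratio of CF control to WT control was 1.46 for Pdia6, 1.37 for Creld2, 1.28 for Calr, 1.15 for Canx and 0.926 for Dnajc3. It was 0.919 for Herpud1, with the ERSE-II, and 0.920 for Kdelr3, with the core of the UPR element. A match of letters describes the sequence, and binding was not measured.

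Protein disulfide isomerases form and rearrange disulfide bonds, and their 5 members varied in opposite ways. Pdia6, which also attenuates IRE1 signalling, had signals of 2624 in CF + lubiprostone, 3928 in CF control, 2111 in WT + lubiprostone and 2684 in WT control from 1 probe set. CF control stood above the other pools, and the ratio of CF + lubiprostone to CF control, 0.668, fell just short of the threshold. Pdia5 had 577, 789.6, 570.2 and 557 in the same order, again with CF control apart from 3 similar pools. P4hb, the founding isomerase and a subunit of prolyl hydroxylase, had 31512, 23474, 27308 and 24975, with CF control the lowest and CF + lubiprostone at 1.34 times its level. Pdia3, which works with the lectin chaperones on glycoproteins, had 892, 987, 837 and 865, and its 2 probe sets pointed in opposite directions in each comparison. The brighter, with signals between 5855 and 8152, gave 1.36 for CF control over WT control and 0.718 for CF + lubiprostone over CF control. The dimmer, between 98.4 and 136 and so near the array medians, gave 0.961 and 1.14. Pdia4 had 624, 562, 508 and 663, lowest in WT + lubiprostone.

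The lectin chaperones hold newly glycosylated proteins until they are folded, and both members were highest in CF control. Calr had signals of 10059 in CF + lubiprostone, 12353 in CF control, 10209 in WT + lubiprostone and 9620.3 in WT control. All 3 of its probe sets had ratios above 1 for CF control over WT control, at 1.28 with an SD of 0.06 on the log2 scale, and below 1 for CF + lubiprostone over CF control, at 0.814 with an SD of 0.09. Both treated pools were similar, at a CF to WT ratio of 0.985. Canx had a mean within 1.15-fold over the pools, and all 3 of its probe sets were above 1 for CF control over WT control. They disagreed for CF + lubiprostone over CF control, at 0.914, 0.680 and 1.13, with an SD of 0.37.

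The chaperone cofactors and induced ER proteins differed among themselves. Sdf2l1, an ER resident that works with the Hsp70 chaperone of the ER, had signals of 595 in CF + lubiprostone, 1122 in CF control, 829 in WT + lubiprostone and 905 in WT control from 1 probe set. It was 1.88-fold down in CF + lubiprostone relative to CF control, the widest difference of any member in the 4 comparisons. CF + lubiprostone was also its lowest pool, at 0.718 times WT + lubiprostone. Manf, a stress-induced factor kept in the ER or secreted, had 6998, 8927, 6175 and 6843 in the same order of pools, highest in CF control. Creld2, also stress-induced, had 1518, 1662, 1072 and 1215, and both CF pools were above both WT pools. Hyou1, a large relative of Hsp70 that serves as its exchange factor, had 490.0, 496, 468 and 472, a mean of 3 probe sets that disagreed. For CF control over WT control they gave 1.46 (the brightest), 1.04 and 0.758, with an SD of 0.48. Dnajc3, a cochaperone that inhibits PERK, had 999.6, 1187, 1194 and 1282, highest in WT control.

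Of the 3 members of ER-associated degradation, Herpud1 differed in a single pool. Herpud1, a membrane protein of the ubiquitin ligase complex for misfolded proteins, had signals of 3999 in CF + lubiprostone, 2411 in CF control, 2559 in WT + lubiprostone and 2625 in WT control. CF + lubiprostone lay above the others, which were within 1.09-fold of each other. The ratio was 1.66 over CF control, from probe sets at 1.59 and 1.73, and 1.56 over WT + lubiprostone, from probe sets at 1.62 and 1.504. Sel1l, the partner of that ligase, had 668, 884, 739.8 and 864 in the same order of pools. All 5 Sel1l probe sets were below 1 for CF + lubiprostone over CF control, at 0.756 with an SD of 0.32. Edem1, which directs trimmed glycoproteins to degradation, had 2089.5, 2426, 2286 and 2512, lowest in CF + lubiprostone as a mean of 2 probe sets. They gave 1.12 and 0.831 for CF control over WT control, and both were below 1 for CF + lubiprostone over CF control.

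**Figure D3:**
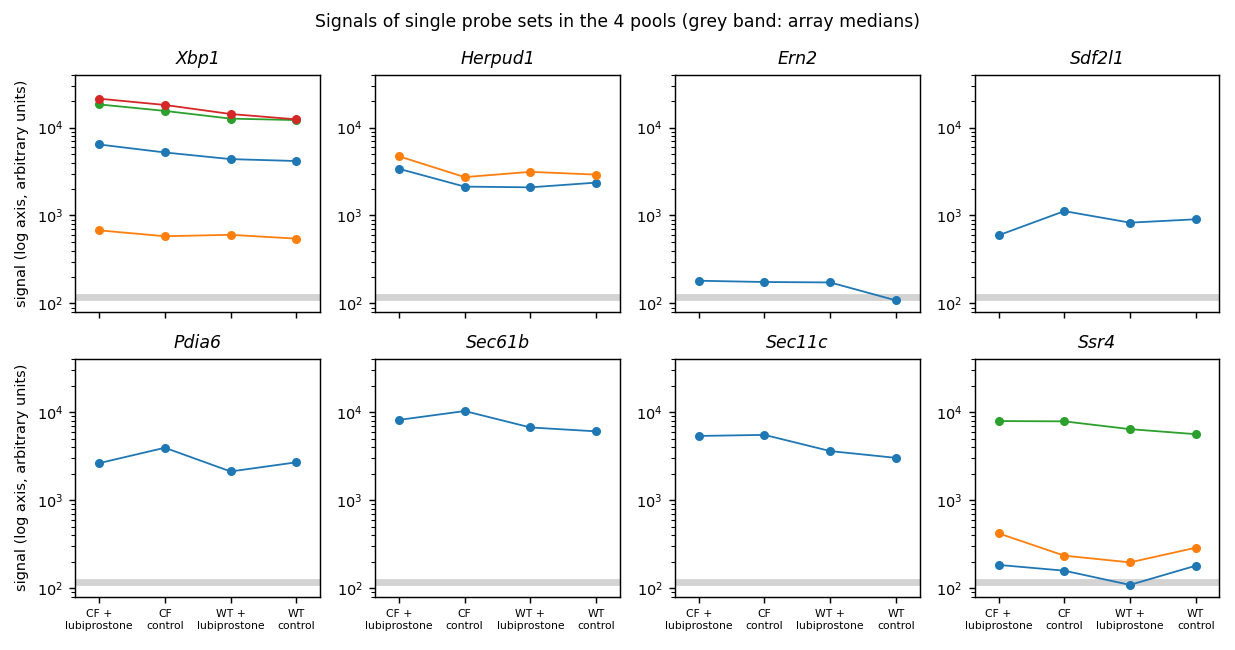
Signals of the kept probe sets of 8 genes (log axis, arbitrary units) in the 4 pools, where lines join the values of 1 probe set and grey shading spans the array medians. All 4 Xbp1 probe sets are highest in CF + lubiprostone, both Herpud1 probe sets are raised in that pool alone, and the 3 Ssr4 probe sets differ in shape.

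Of the Sec61 channel, Sec61b differed more than Sec61a1. Sec61b, a small subunit, had signals of 8138 in CF + lubiprostone, 10265 in CF control, 6680.4 in WT + lubiprostone and 6033 in WT control from 1 probe set. Both CF pools were above both WT pools, at a ratio of 1.70 for CF control over WT control and of 1.22 between the treated pools. Sec61a1, which forms the pore, had 2072, 2246, 1961 and 1992 in the same order, and 5 of its 6 probe sets were above 1 for CF control over WT control, with an SD of 0.43. The probe set listed for Sec61g and 2 other genes had 6748, 6881, 6058 and 5342, which cannot be read as Sec61g alone.

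The 4 subunits of the translocon-associated protein complex, which helps signal sequences open the channel, were mixed. Ssr1 had signals of 692 in CF + lubiprostone, 752 in CF control, 719.7 in WT + lubiprostone and 619 in WT control, with 3 of 4 probe sets above 1 for CF control over WT control and an SD of 0.37. Ssr2 had 3189, 3685, 2509 and 2618 in the same order of pools, with both CF pools above both WT pools, and Ssr3 was highest in CF control, within 1.23-fold over the pools. Ssr4 had 846, 660.1, 514 and 661, and its ratio of 1.65 for CF + lubiprostone over WT + lubiprostone passed the threshold. That value came from its dimmer probe sets, at 2.14 and 1.69, and the brightest, with signals between 5603 and 7898, gave 1.24.

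Of the 5 genes of the signal peptidase complex, Sec11c had the widest difference between CF control and WT control of all members. Sec11c, a catalytic subunit, had signals of 5348 in CF + lubiprostone, 5499.6 in CF control, 3600.2 in WT + lubiprostone and 3014 in WT control from 1 probe set. Both CF pools were above both WT pools, with ratios of 1.82 untreated and 1.49 treated. This split was not particular to Sec11c, since other members, such as Rpn1 and Ddost, had it too. Sec11a, the alternative catalytic subunit, had 3736, 3593, 3391 and 3981 in the same order of pools, without that split. Of the accessory subunits, Spcs1 had 5954, 7485, 5992 and 5954, so that CF control stood above 3 similar pools, and Spcs2 and Spcs3 were highest in CF control too.

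All 4 oligosaccharyltransferase subunits had ratios above 1 for CF control over WT control and between the treated pools. Rpn1, a ribophorin, had signals of 5929.6 in CF + lubiprostone, 6798 in CF control, 5401 in WT + lubiprostone and 4932 in WT control. Its 5 probe sets were all above 1 for CF control over WT control, at 1.38 with an SD of 0.07 on the log2 scale, and all below 1 for CF + lubiprostone over CF control, at 0.872 with an SD of 0.06. Rpn2 had 3355, 3914, 2966 and 2809.6 and Ddost had 3713, 4247, 3441 and 3400.2, in the same descending order of pools as Rpn1. Stt3a, the catalytic subunit that acts during translocation, had a mean within 1.11-fold over the pools, but its 3 probe sets disagreed. For CF control over WT control the brighter ones gave 1.33 and 1.24 and the dimmest 0.774, with an SD of 0.42.

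The KDEL receptors return escaped ER residents from the Golgi. Kdelr2 had signals of 3578 in CF + lubiprostone, 3535 in CF control, 3412 in WT + lubiprostone and 3217 in WT control, within 1.11-fold. Kdelr3 had 445, 474, 393 and 515 in the same order, highest in WT control.

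For CF + lubiprostone over CF control, 6 of 19 UPR genes and 4 of 17 secretory genes had a ratio above 1, against 51.1% of all genes. The median log2 ratio was -0.17 for UPR genes and -0.19 for secretory genes, beside 0.01 for all genes and -0.02 for bright genes. At 1.5-fold, Herpud1 was higher and Sdf2l1 lower, against 7.24% and 4.65% of all genes. With each array scaled to the same median, 5 UPR genes and 1 secretory gene had a ratio above 1, against 36.0% of all genes. This comparison and CF control over WT control use the same CF control array, whose reading enters them with opposite signs.

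For WT + lubiprostone over WT control, 6 of 19 UPR genes and 9 of 17 secretory genes had a ratio above 1, against 49.7% of all genes, and the medians were -0.06 and 0.01. Ern2 was the only member past 1.5-fold, where 2.79% of all genes were higher and 3.17% lower. Kdelr3 and Pdia4 had the lowest ratios, 0.763 and 0.767.

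The comparison of CF + lubiprostone with WT + lubiprostone uses neither control array. Here 13 of 19 UPR genes and 14 of 17 secretory genes had a ratio above 1, against 50.2% of all genes, and the medians were 0.08 and 0.11 beside 0.00 for all genes. Herpud1 and Ssr4 were past 1.5-fold upward and 0 members downward, against 6.3% and 7.02% of all genes. Sec11c, Creld2 and Xbp1 came next, at 1.49, 1.42 and 1.37.

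Other genes of the pathway were taken as lists by name. Of 21 other ER chaperones and folding enzymes, 16 had a ratio above 1 for CF control over WT control (48.3% of all genes). Their median log2 ratio was 0.20. For CF + lubiprostone over CF control 4 had a ratio above 1 (51.1% of all genes), with a median of -0.14. Hspa5 (BiP, the main Hsp70 of the ER) had signals of 5561 in CF + lubiprostone, 7491 in CF control, 6045 in WT + lubiprostone and 6363 in WT control, and all 3 of its probe sets were above 1 in the first of these comparisons and below 1 in the other. Hsp90b1 (GRP94) had 5672, 8131, 5622 and 7139 in the same order, also highest in CF control. The ratios furthest from 1 for CF control over WT control were those of Ero1a, the oxidase that recharges disulfide isomerases, with 2233, 4017, 1022 and 1207, and of Pdia2, an isomerase of the pancreas, with 45.8, 229.8, 197 and 355. Ero1a, which is not a member, was more than 3-fold higher there, as were 0.64% of all genes. Pdia2 was below the array median in CF + lubiprostone. The 11 other degradation genes had medians of -0.02 and 0.03, from 0.759 for Erlec1 to 1.26 for Selenos in CF control over WT control.

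The 8 genes of the PERK, ATF4 and CHOP branch had median log2 ratios of 0.17 for CF control over WT control, 0.06 for WT + lubiprostone over WT control, 0.24 for CF + lubiprostone over CF control and 0.43 for CF + lubiprostone over WT + lubiprostone. Atf4, the transcription factor whose translation PERK and related kinases favour, had signals of 6225 in CF + lubiprostone, 4178 in CF control, 3138 in WT + lubiprostone and 3057 in WT control. Both CF pools were above both WT pools, and the 2 probe sets were above 1 for CF + lubiprostone over CF control, at 1.49. Chac1, a glutathione-degrading target of ATF4, had 785, 377, 187 and 51.7 in the same order, with WT control below the median of its array, and Trib3, a pseudokinase induced by ATF4, had 518, 310.0, 309 and 272. Ddit3 (CHOP), a proapoptotic factor of this branch, had 197, 256, 277 and 262, lowest in CF + lubiprostone.

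Delivery to the channel and export from the ER were also covered. All 7 measured genes of the signal recognition particle and its receptor were above 1 for CF control over WT control (48.3% of all genes). With each array scaled to the same median, 67.1% of all genes were above 1 there. The 7 ratios ran from 1.02 for Srp68 to 1.22 for Srpr, with a median log2 ratio of 0.18. Their median was 0.01 for CF + lubiprostone over CF control. The 14 other translocation and glycosylation genes had medians of 0.08 and -0.13 in these comparisons, and the first ranged from 0.622 for Tram2 to 1.68 for Dad1, a subunit of the oligosaccharyltransferase. The 15 coat and cargo genes of ER to Golgi transport had -0.16 and 0.02, from 0.725 for Sar1b, a coat GTPase, to 1.35 for Tmed10, a cargo receptor. The 6 other membrane-bound transcription factors of ER stress had -0.14 and -0.11, with Creb3l3, a factor of liver and gut, at 1.64 for CF + lubiprostone over CF control.

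**Figure D4:**
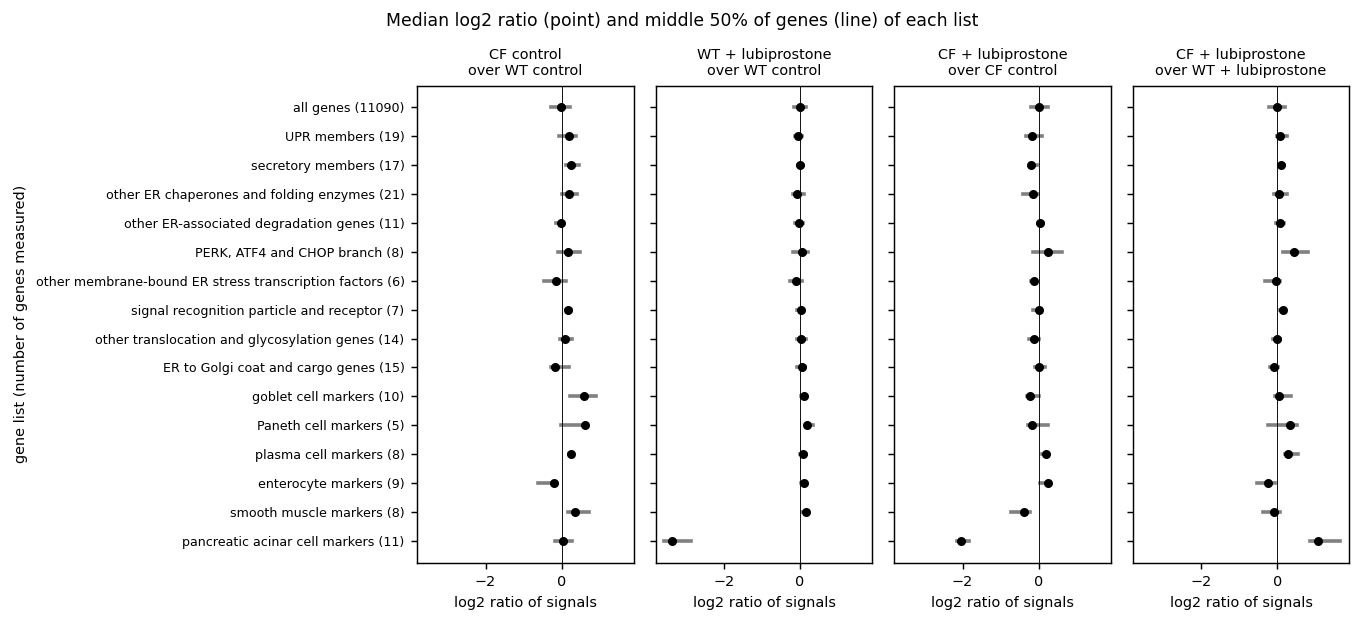
Median log2 ratio of signals (points, horizontal axis) and range of the middle 50% of genes (lines) for the members, other lists of the pathway and markers of cell types, in the 4 comparisons of 1 array against 1 array. The pancreatic acinar list lies at -3.38 for WT + lubiprostone over WT control and at -2.05 for CF + lubiprostone over CF control, and the goblet list at 0.58 for CF control over WT control.

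Markers of ER-rich cell types differed between the same pools. Of 10 goblet cell markers, among them Ern2, 8 had a ratio above 1 for CF control over WT control (48.3% of all genes). Their median log2 ratio was 0.58. For CF + lubiprostone over CF control 3 had a ratio above 1 (51.1% of all genes), with a median of -0.22. Their summed signals were 137508 in CF + lubiprostone, 149026 in CF control, 127543 in WT + lubiprostone and 118658 in WT control. The 5 Paneth cell markers measured, of 10 listed, had medians of 0.61 and -0.17 and sums of 64402, 74119, 64453 and 58503. The 8 plasma cell markers measured, of 10 listed, were all above 1 in both comparisons, with medians of 0.25 and 0.20. Their sums of 72656, 64812, 55946 and 52522 had the same order of pools as Xbp1, Ern2, Stt3a and Kdelr2. The share of all genes with that order was not counted. The 9 enterocyte markers had medians of -0.20 and 0.26, and the 8 smooth muscle markers 0.36 and -0.40. No marker of these lists was at 0, and the part of any cell type in the members' ratios was not tested.

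Pancreatic acinar cells, which are rich in ER, had much lower marker signals in both treated pools. Their 11 measured markers, of 14 listed, had summed signals of 10029.8 in CF + lubiprostone, 37069 in CF control, 4856 in WT + lubiprostone and 35433 in WT control, and none was at 0. All 11 were past 1.5-fold downward in both treated pools relative to the control of the same genotype. Of all genes, 3.17% were so in WT and 4.65% in CF. The median of the 11 markers was 0.04 for CF control over WT control and 1.06 for CF + lubiprostone over WT + lubiprostone. For WT + lubiprostone over WT control they had a median of -3.38, where UPR and secretory members had -0.06 and 0.01. For CF + lubiprostone over CF control they had -2.05, where the members had -0.17 and -0.19.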

How the data were processed

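Total RNA pooled within each group was hybridized by the authors to 1 Affymetrix Mouse 430 2.0 array. The deposited values are linear intensities (signals), which per the labels came from GCOS and MAS5, whose versions are not given in the sources used here. Each array had a mean of 500.0 once the top and bottom 2% of signals were set aside, so the arrays had already been scaled. Of 45101 probe sets, 34958 are listed for 1 gene and 932 for several, and 9211 have no name in the annotation table used. Symbols were updated by gene identifier for 34754.

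A probe set was kept when its geometric mean over the 4 arrays was at or above that of the array medians, which treats all groups alike and left 19202 probe sets and 11090 genes. For each gene, log2 ratios were averaged over its kept probe sets. The rule for named genes gave full values to members past 1.5-fold in a comparison and to the first member of each role, and named the furthest genes of each other list. Other genes given with values, such as Pdia5, Manf, Rpn2, Hspa5 and Atf4, were chosen after their values were seen. The members and lists were chosen with earlier results of these data known. The alternatives were other scalings, limits on dim signals and ways to combine probe sets. The number of arrays limits the precision, and no p-value is given. The steps were tested on simulated data. Python 3.11.15 was used with numpy 2.4.6, pandas 2.3.3 and matplotlib 3.10.9.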

Additional observations from a re-analysis of the deposited data

Results flagged for a closer look

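For 3 members, the ratios of a matched pair of comparisons lay on opposite sides of 1, each by more than the median SD between probe sets over all genes. These differences were not tested, since each ratio is of 1 array against 1 array.

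The ratio of Ssr4 was 1.28 for CF + lubiprostone over CF control and 0.778 for WT + lubiprostone over WT control, a difference of 0.72 on the log2 scale, but the SD over its 3 probe sets, 0.43 and 0.49, was larger than either log2 ratio. The opposite signs came from its 2 dimmer probe sets, at 1.16 and 1.79 for CF + lubiprostone over CF control and 0.605 and 0.682 for WT + lubiprostone over WT control, while the brightest gave 1.01 and 1.14. Pdia4, from 1 probe set, had 1.23 for CF + lubiprostone over WT + lubiprostone and 0.849 for CF control over WT control, a difference of 0.53. Sdf2l1, also from 1 probe set, had 0.718 and 1.24 in these comparisons, a difference of -0.79.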

How the results depend on the processing

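Over 9 alternatives, the 8 medians moved by at most 0.18 on the log2 scale. Each move was smaller than the median SD between probe sets of a gene. That SD is a loose yardstick, since in size it exceeded every median reported but the secretory one for CF control over WT control. For CF control over WT control the UPR median ranged from 0.19 to 0.38 and the secretory median from 0.20 to 0.43, and for CF + lubiprostone over CF control they ranged from -0.30 to -0.12 and from -0.32 to -0.12. Those signs held under all 9, while the medians of WT + lubiprostone over WT control, near 0, changed sign in 3 cases. Of 72 recounts of members past 1.5-fold, 63 were within 1.5 times the count reported. With each array scaled to the same median, 9 members were higher for CF control over WT control (12.4% of all genes) and 2 (Sdf2l1 and Pdia6) lower for CF + lubiprostone over CF control (8.50% of all genes). For WT + lubiprostone over WT control, 0 were higher with a limit at the 75th percentile (0.951% of all genes) or with dim signals set to the array median (2.03%), and 1 (Sec11a) was lower with no limit (15.1%). Without probe sets marked as matching several transcripts, 2 (Herpud1 and Ssr4) were higher for CF + lubiprostone over CF control (7.35% of all genes). With the limit at the 75th percentile, the brightest probe set or summed signals, 1 (Herpud1) was higher for CF + lubiprostone over WT + lubiprostone (5.17%, 7.13% and 6.37% of all genes). No paired analysis was possible because each group has 1 array, and for the same reason no replicate could be left out. Of the 36 members, 16 rest on 1 kept probe set.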
